A study of Mus musculus with 10 samples.

Results

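The 8 genes described here encode a fatty acid transport and oxidation route of the peroxisome: Abcd2, Abcd3, Acox3, Ehhadh, Hsd17b4, Acaa1a, Acaa1b and Scp2. They were taken by gene symbol from a table of 14276 genes, and all 8 were in it. The symbols had been selected on measured values, the differences between BrapcKO and control in this table. The table holds read counts from ribosomal RNA-depleted total RNA of cerebral cortex, from C57BL/6 mice aged 3 months. The 5 control libraries were Brap flox/wt Cre- (08, 22 and 23) or flox/flox Cre- (09 and 24). The 5 BrapcKO libraries were Brap flox/ko Cre+ (04, 07 and 21) or flox/flox Cre+ (05 and 06), where ko is a deleted allele and flox one that Cre recombinase can cut. Which promoter drives Cre, and whether each library is a separate mouse, is not stated in the labels. The p-values therefore rest on the spread of these libraries, which may be partly technical. Cre was present in every BrapcKO library and in no control, so its own effect and that of the knockout cannot be told apart.

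Peroxisomal beta-oxidation shortens fatty acids that mitochondria handle poorly, mainly very long-chain and branched ones. Transporters of the ABCD family bring the acyl-CoA in, an acyl-CoA oxidase makes the double bond and releases hydrogen peroxide, a multifunctional enzyme hydrates and dehydrogenates, and a thiolase cleaves off acetyl-CoA or propionyl-CoA. In humans, inherited loss of steps in this route causes disease of brain and myelin, as in X-linked adrenoleukodystrophy and D-bifunctional protein deficiency. In mice the straight-chain thiolase has a pair of genes, Acaa1a and Acaa1b.

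Total counts ran from 17188901 to 28991874 per library. The titles carry a code of unstated meaning: B1 marks control 08 and 09 and BrapcKO 04, 05, 06 and 07, and B2 marks control 22, 23 and 24 and BrapcKO 21. The code separated the libraries widely, with 25.1% of all genes called between B2 and B1, so it was a term in the comparison of the groups. Y-linked reads were present in control 23 and BrapcKO 05, 06, 07 and 21 and near 0 in the other 5. Brap itself stood at 76.7 to 98.6 CPM (counts per 1000000 counts of a library, scaled by TMM) in control and 89 to 110.5 CPM in BrapcKO. A count over the whole gene does not show the loss of a part of it, so the labels were not checked by this value. Differences below are log2 values from edgeR's quasi-likelihood fit with group and title code. An adjusted p under 0.05 over all 14276 genes is called a change.

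Acaa1b was higher in every BrapcKO library than in any control, while the other 7 genes overlapped between the groups. It was the 1 member called higher, and 0 members were called lower. Over all genes 3.12% were called higher and 4.95% lower, and 6.82% did not overlap between the groups. The members were chosen with this contrast known, so their values in it are a description, no p is given for them, and nothing is read from the count. In bulk tissue, fewer cells of a type and less RNA per cell cannot be told apart.

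**Figure D1:**
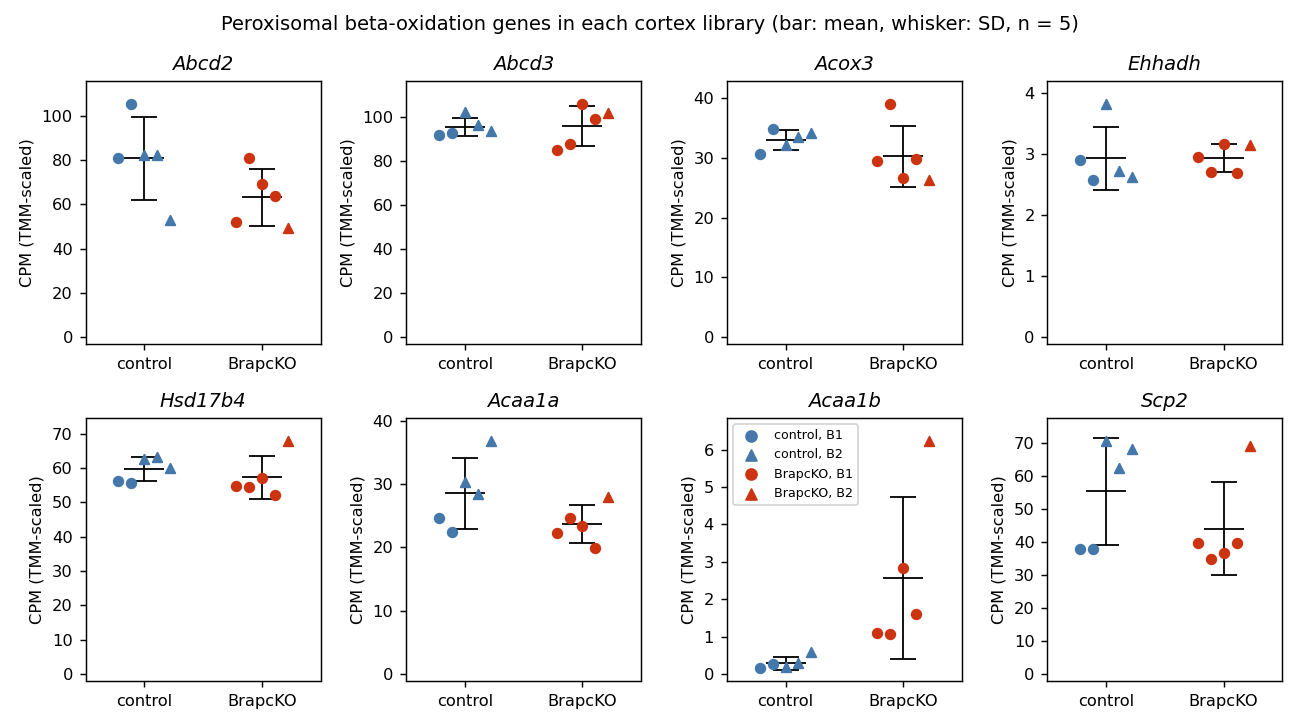
CPM (TMM-scaled, linear axes, a separate scale for each gene) of the 8 genes in each library; circles are title code B1, triangles B2, the bar is the mean and the whisker the SD of 5 libraries. The groups are apart for Acaa1b, while Scp2, Acaa1a and Hsd17b4 are split by title code within both groups.

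Acaa1b (ENSMUSG00000010651.4, GRCm38 chromosome 9, 119148023 to 119157093, minus strand, protein coding) encodes a 3-ketoacyl-CoA thiolase, the enzyme of the last step of each cycle. Its read counts were 3, 5, 5, 8 and 15 in control 08, 09, 22, 23 and 24. They were 21, 19, 60, 33 and 176 in BrapcKO 04, 05, 06, 07 and 21. All control values were therefore small, and BrapcKO 21 held more reads than the other 4 BrapcKO libraries together.

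On the CPM scale Acaa1b stood at 0.153, 0.257, 0.173, 0.279 and 0.578 in the 5 controls in the same order. The 5 BrapcKO libraries gave 1.09, 1.07, 2.83, 1.61 and 6.23 CPM. The lowest BrapcKO value lay above the highest control value. Control averaged 0.288 ± 0.171 CPM and BrapcKO 2.57 ± 2.17 CPM (SD, n = 5 each), 8.91-fold apart. The fitted log2 difference was 3.71 (SE 0.44) with the title code as a term, rank 9 from the top among 14276 genes. With group as the only term the difference was 3.13.

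Low counts limit this value. For control 08 the exact 95% Poisson interval of 3 reads was 0.619 to 8.77 reads, and for BrapcKO 21 that of 176 reads was 151 to 204, which covers counting error only. Every gene in the table reached 0.582 CPM, by plain library totals, in at least 5 libraries. Acaa1b did so in 5, all BrapcKO, and its next value was 0.569 CPM in control 24. It thus entered the table only through the group in which it was high, and the other 7 genes were above that level in all 10 libraries.

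Acaa1a (ENSMUSG00000036138.16, chromosome 9, 119339676 to 119350299, plus strand) encodes the near-identical thiolase. Its lowest coordinate lies 191653 bases from that of Acaa1b on the assembly. It stood at 24.6, 22.4, 30.4, 28.4 and 36.8 CPM in control 08, 09, 22, 23 and 24. In BrapcKO 04, 05, 06, 07 and 21 it stood at 22.3, 24.7, 23.4, 19.9 and 28 CPM. The groups overlapped, and within each group the B2 libraries were the higher ones. Control averaged 28.5 ± 5.59 CPM and BrapcKO 23.7 ± 2.97 CPM (SD, n = 5 each), with a fitted log2 difference of -0.11 (SE 0.10).

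The comparison of the pair asked whether their balance differed between the groups. For every 100 reads of Acaa1a, control 08, 09, 22, 23 and 24 held 0.62, 1.15, 0.569, 0.983 and 1.57 reads of Acaa1b. BrapcKO 04, 05, 06, 07 and 21 held 4.87, 4.33, 12.1, 8.09 and 22.3. Per length of annotated exons, the range was 1.28 to 3.53 for every 100 of Acaa1a in control and 9.74 to 50.1 in BrapcKO, so Acaa1a had the higher level per length in all 10 libraries.

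As a log2 ratio of counts, Acaa1b to Acaa1a was -6.78 ± 0.61 in control and -3.55 ± 0.97 in BrapcKO (SD, n = 5 each). The fitted difference of Acaa1b less that of Acaa1a was 3.81 on the log2 scale. It was 3.05 within B1 (2 control and 4 BrapcKO libraries) and 4.37 within B2, which has 1 BrapcKO library. Without BrapcKO 21 it was 3.05.

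**Figure D2:**
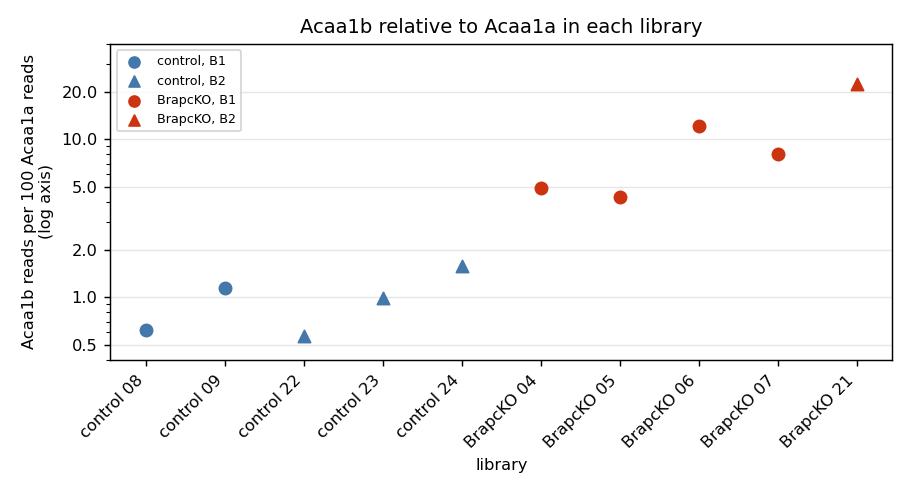
Reads of Acaa1b for every 100 reads of Acaa1a (log axis) in each of the 10 libraries; blue marks control, red BrapcKO, circles title code B1 and triangles B2. The 5 controls lie between 0.569 and 1.57 and the 5 BrapcKO libraries between 4.33 and 22.3.

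Their sequences bear on how far reads can be assigned to one or the other. In the GENCODE M21 transcripts both coding sequences have 1272 bases and align without gaps, with 1228 identical positions (96.5%) and 44 differences, and the longest identical run is 327 bases. Of the 1913 different 50-base stretches of Acaa1b transcripts, 583 (30.5%) also occur in Acaa1a transcripts. The 90 coding bases in which the genes differ most are shown here, from position 460 to 549 counted from the start codon, with the 13 differing bases in capitals.
Acaa1a: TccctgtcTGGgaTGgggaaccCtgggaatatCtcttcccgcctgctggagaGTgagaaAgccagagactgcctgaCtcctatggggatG
Acaa1b: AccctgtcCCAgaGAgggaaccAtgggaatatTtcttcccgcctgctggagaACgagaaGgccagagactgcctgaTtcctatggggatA

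The sources used here do not give how reads matching both genes were counted, so part of either count may belong to the other gene. Acaa1b also shares 224 exonic bases with Dlec1 on the opposite strand, and the use of strand in counting is equally not given. Dlec1 stood at 2.53 ± 0.488 CPM in control and 1.42 ± 0.371 CPM in BrapcKO (n = 5 each), a log2 difference of -0.88 (SE 0.26, edgeR adjusted p 0.0536). Its adjusted p was 0.0238 by DESeq2 and 0.0487 by limma-voom. Acaa1a shares 290 exonic bases with Myd88, which differed by 0.18 (adjusted p 0.61).

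The start regions of the pair are shown because the genes differ in level while their coding sequences are close. They are given, from the RefSeq promoter table of GRCm38.p6, as 250 bases before and 50 after the start site: chr9:119341044-119341343 on the plus strand for Acaa1a and chr9:119157044-119157343 on the minus strand for Acaa1b. The Acaa1a window lies inside the gene as placed by GENCODE M21, which begins at 119339676, so its values hold for the RefSeq start only. Capitals mark every CCAAT (or its complement ATTGG) and every GGGCGG, searched on both strands.
Acaa1a: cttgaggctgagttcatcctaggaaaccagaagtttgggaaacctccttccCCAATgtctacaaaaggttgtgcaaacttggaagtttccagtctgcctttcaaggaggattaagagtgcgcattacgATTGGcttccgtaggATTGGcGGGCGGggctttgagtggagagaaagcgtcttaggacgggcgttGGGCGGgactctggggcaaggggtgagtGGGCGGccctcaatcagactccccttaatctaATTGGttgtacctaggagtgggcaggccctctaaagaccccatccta
Acaa1b: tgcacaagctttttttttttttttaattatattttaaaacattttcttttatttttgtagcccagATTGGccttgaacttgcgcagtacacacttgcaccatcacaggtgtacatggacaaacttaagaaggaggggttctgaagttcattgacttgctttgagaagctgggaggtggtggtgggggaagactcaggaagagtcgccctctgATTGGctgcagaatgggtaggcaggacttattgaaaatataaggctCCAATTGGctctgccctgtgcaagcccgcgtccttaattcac

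The Acaa1a window holds 3 GGGCGG and the Acaa1b window 0, and 35.7% of the 32851 promoters in the table hold at least 1. Each window holds 4 CCAAT counting both strands, with an overlapping pair after the start of Acaa1b, and 37.4% of promoters hold at least 1. AGGTCA, the half-site known to be bound by nuclear receptors such as PPAR and RXR, is in neither window and in 16.3% of promoters. TATAAA is also in neither window (13.6% of promoters). GC content was 53.3% for Acaa1a and 43.7% for Acaa1b.

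Acaa1b was also read within genotypes, codes and libraries with or without Y-linked reads. Within B1 its log2 difference between the groups was 2.99 (SE 0.64), and within B2 it was 4.18 (SE 0.56). These values differ by 1.19 (SE 0.97), which is given with no test, since B2 has a single BrapcKO library. Over all genes the edgeR interaction fit called 0, with 7.49% (1069) at an unadjusted p under 0.05. The flox/flox Cre+ libraries differed from flox/flox Cre- by 3.33, and flox/ko Cre+ from flox/wt Cre- by 4.29.

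Among the 5 libraries with Y-linked reads, Acaa1b stood at 0.279 CPM in control 23 and at 1.07 to 6.23 in BrapcKO 05, 06, 07 and 21. Among the other 5, it stood at 0.153 to 0.578 CPM in control 08, 09, 22 and 24 and at 1.09 in BrapcKO 04. With a Y-linked score added as a term, the log2 difference was 3.49. Without 1 library at a time it ran from 2.98 (without BrapcKO 21) to 4.00 (without control 09). Since the gene was chosen from this contrast, these values describe it and test nothing.

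Between the genotypes of 1 group, a measure not used to choose the genes, the members other than Acaa1b were not called. Acaa1b entered the table only through BrapcKO, so its values here are a description with no test. In control, Acaa1b differed by 1.32 (SE 0.67) between flox/flox and flox/wt, on 3 to 15 reads per library. In BrapcKO it differed by -0.35 (SE 0.48) between flox/ko and flox/flox. Over all genes the same fit called 0% in either comparison (0 genes), with 1012 (7.09%) and 960 (6.72%) genes at an unadjusted p under 0.05.

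Summed markers of other cell types and of a neighbouring region are given beside Acaa1b. The summed CPM of 8 of 10 reactive astrocyte markers measured was 209 to 245 in control and 502 to 1512 in BrapcKO, and that of all 10 microglia markers 346 to 376 and 462 to 1309. For 10 of 10 striatal markers, from the region beneath cortex, the sums were 553 to 1214 and 970 to 1815. For 10 of 10 oligodendrocyte markers they were 3398 to 4723 and 2513 to 3483. The reactive astrocyte and microglia sums did not overlap between the groups, and the striatal and oligodendrocyte sums did. Such sums can be carried by 1 gene: Gfap alone averaged 140 CPM in control and 667 in BrapcKO. No listed marker that was measured was at 0 in all libraries.

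The reactive astrocyte and microglia sums were highest in BrapcKO 05, where Acaa1b stood at 1.07 CPM, beside 1.09 in BrapcKO 04. The striatal sum was highest in BrapcKO 21, which had the highest Acaa1b. In control 22 the striatal sum was 1214, above BrapcKO 04, 05 and 06 at 970 to 1156, with Acaa1b at 0.173 CPM. Nothing is read from these single libraries. Markers of general astrocytes and neurons overlapped between the groups in their sums, at 5449 to 7315 and 4838 to 8071 for astrocytes and at 10434 to 11780 and 9715 to 10915 for neurons. Most of the astrocyte sum was Slc1a2, with means of 4152 CPM in control and 4243 in BrapcKO. Over all genes 3.12% were called higher and 4.95% lower. Called higher were 4 of 8 reactive astrocyte markers (Osmr, Vim, Serpina3n and Gfap) and 1 of 10 microglia markers (C1qa). So were 7 of 10 striatal markers (among them Penk, Rgs9, Tac1, Ppp1r1b, Isl1 and Drd1). Called lower were 4 of 10 neuron markers (Nefl, Syt1, Camk2a and Neurod6) and 1 of 7 meningeal markers (Slc6a13), and 0 of the astrocyte, oligodendrocyte, endothelial, choroid plexus and blood markers were called. Summed markers of endothelium, choroid plexus, meninges and blood overlapped between the groups. The marker lists were chosen with earlier results of these data known, so the calls of their genes are a description. The part of cell makeup in the Acaa1b difference was not tested.

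The transporters come at the start of the route. Abcd2 (ENSMUSG00000055782.9, chromosome 15, 91145871 to 91191799, minus strand) encodes the adrenoleukodystrophy-related transporter of very long-chain acyl-CoA. It stood at 80.9, 105.1, 82.4, 82.3 and 52.8 CPM in control 08, 09, 22, 23 and 24. BrapcKO 04, 05, 06, 07 and 21 gave 51.9, 81.1, 69.3, 63.6 and 49.5 CPM. Control 24 lay among the lower BrapcKO values and BrapcKO 05 among the control values, so the groups overlapped.

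Abcd2 averaged 80.7 ± 18.6 and 63.1 ± 13 CPM (SD, n = 5 each), with a log2 difference of -0.51 (SE 0.16) that was not called. It was called, as lower, by DESeq2 (-0.51), with the Y-linked score as a further term (-0.78), and in edgeR without control 24 (-0.57) or BrapcKO 05 (-0.57). For flox/ko Cre+ against flox/wt Cre- it was -0.70, and for flox/flox Cre+ against flox/flox Cre- it was -0.20. Abcd2 was chosen with this contrast known, so these values and calls describe it and test nothing.

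Abcd3 (ENSMUSG00000028127.10, chromosome 3, 121758774 to 121815302, minus strand) encodes PMP70, the abundant peroxisomal membrane transporter that also carries branched-chain acyl-CoA and bile acid intermediates. It ranged from 92.1 to 102.3 CPM in control and from 85.3 to 105.9 in BrapcKO. The means were 95.5 ± 4.16 and 96 ± 9 CPM, and the log2 difference was 0.04 (SE 0.08).

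Acox3 (ENSMUSG00000029098.17, chromosome 5, 35583040 to 35615352, plus strand) encodes an acyl-CoA oxidase of branched-chain substrates. It ranged from 30.7 to 34.8 CPM in control. In BrapcKO 04, 06, 07 and 21 it ranged from 26.3 to 29.8, below all controls, and BrapcKO 05 stood above them at 39. The log2 difference was -0.17 (SE 0.12), -0.07 within B1 and -0.34 within B2. Acox3 shares 700 exonic bases with an antisense transcript.

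The multifunctional enzymes carry the middle steps. Ehhadh (ENSMUSG00000022853.7, chromosome 16, 21761287 to 21787807, minus strand) encodes the L-bifunctional enzyme. It ranged from 2.57 to 3.81 CPM in control and from 2.69 to 3.16 in BrapcKO, with a log2 difference of 0.06 (SE 0.18). The BrapcKO values lay inside the control range. Hsd17b4 (ENSMUSG00000024507.6, chromosome 18, 50128201 to 50196269, plus strand) encodes the D-bifunctional enzyme, needed for very long-chain and branched substrates. It ranged from 55.6 to 63.1 CPM in control and from 52 to 67.8 in BrapcKO, with a log2 difference of 0.03 (SE 0.07).

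Scp2 (ENSMUSG00000028603.15, chromosome 4, 108043839 to 108144998, minus strand) encodes sterol carrier protein X, a thiolase for branched chains, and from a shorter transcript the lipid-binding sterol carrier protein 2. It stood at 37.8, 37.8, 70.5, 62.4 and 68 CPM in control 08, 09, 22, 23 and 24. In BrapcKO 04, 05, 06, 07 and 21 it stood at 39.8, 34.9, 36.7, 39.6 and 69.2 CPM. Each group thus held low and high libraries, and every high one was B2. The group difference with the code as a term was 0.02 (SE 0.08), and -0.33 without the code.

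**Figure D3:**
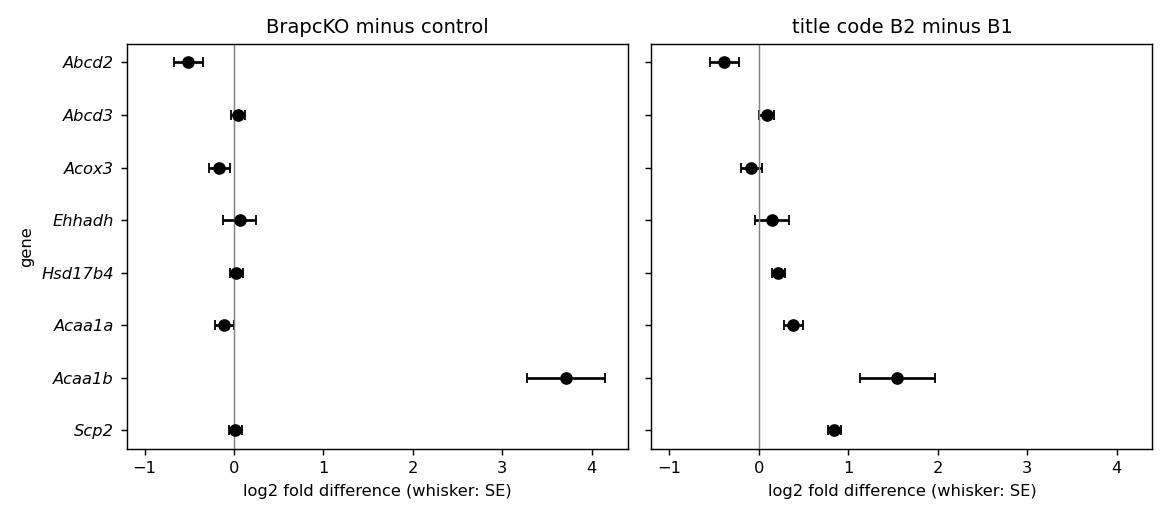
Fitted log2 differences of the 8 genes between BrapcKO and control (left) and between title codes B2 and B1 (right), from 1 fit over 10 libraries; whiskers are the SE. Acaa1b stands apart on the left at 3.71, and Scp2, at 0.02 on the left, stands at 0.85 on the right.

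The title code was not used to choose the genes, so it was tested for the 7 genes other than Acaa1b, which entered the table only through BrapcKO. Between B2 and B1, 3 of these 7 were called higher and 0 lower. Over all genes 13.4% were called higher in B2 and 11.8% lower.

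Scp2 was higher in B2 by 0.85 on the log2 scale (SE 0.08, edgeR adjusted p 2.99e-06), with all 4 B2 libraries at 62.4 to 70.5 CPM above all 6 of B1 at 34.9 to 39.8. It was called in every alternative fit of the code, the 3 B2 against 2 B1 controls included (0.84). Of the 50-base stretches of Scp2 transcripts, 29.7% also occur in those of a pseudogene, Scp2-ps2.

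Acaa1a was higher in B2 by 0.39 (SE 0.11, adjusted p 0.0174), with B2 at 28 to 36.8 CPM and B1 at 19.9 to 24.7. Its call was lost without control 09 (adjusted p 0.0813) and in the controls alone (0.45, adjusted p 0.0749). Hsd17b4 was higher by 0.22 (SE 0.07, adjusted p 0.0447), with B2 at 60.1 to 67.8 CPM and B1 at 52 to 57.1. That call was lost with library totals as the only scaling, in the controls alone, and when any 1 of 7 libraries was left out, namely control 08, 09, 22 and 23 and BrapcKO 04, 07 and 21. The adjusted p then lay between 0.0502 and 0.297.

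For Acaa1b the difference between the codes is a description. It was 1.55 (SE 0.42) in the fit with group, 0.63 with title code as the only term, and 0.72 without BrapcKO 21. Its B2 controls, at 0.173 to 0.578 CPM, overlapped the B1 controls at 0.153 to 0.257. The other 4 genes were not called, from -0.39 (Abcd2, SE 0.16, adjusted p 0.104) to 0.15 (Ehhadh, SE 0.19, adjusted p 0.612).

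Levels of the 8 genes relative to each other were compared as CPM per kilobase of annotated exons. In control the order was Hsd17b4 (17.5 ± 1.03), Scp2 (15.9 ± 4.67), Abcd3 (14.5 ± 0.63) and Abcd2 (13.6 ± 3.12), then Acaa1a (6.46 ± 1.27), Acox3 (2.87 ± 0.141), Ehhadh (0.981 ± 0.171) and Acaa1b (0.147 ± 0.0871 CPM per kilobase, SD, n = 5). Each of the upper 4 overlapped its neighbours in this order, and from Abcd2 downwards no neighbours overlapped. With the longest transcript as the length, Abcd3 led at 27.4, and Acox3, at 8.31, stood beside Acaa1a at 7.78 CPM per kilobase.

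In BrapcKO, Acaa1b reached 1.31 ± 1.11 CPM per kilobase and its range of 0.544 to 3.18 spanned that of Ehhadh, at 0.902 to 1.06. The 8 genes were also compared between libraries once the means of group and code were removed. Of their 28 pairs, 14 had a positive Pearson correlation of centred log2 CPM over the 10 libraries, with a median of -0.03 and a range from -0.58 to 0.42. Acaa1a and Acaa1b had a centred correlation of 0.10. These values are a description over libraries that share depth and composition.

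Other genes of the peroxisome were read against all genes, of which 8.07% were called in either direction. Of 21 other genes of peroxisomal beta-oxidation and acyl-CoA handling, 0 were called higher and 2 lower in BrapcKO, with a median log2 difference of -0.01, against 0.01 over all genes tested. Of 17 genes listed as peroxins, a class that imports proteins into peroxisomes and builds them, 0 were called. Of 21 other genes listed as peroxisomal 1 was called, as lower. Nothing particular to the peroxisome is read from these counts. The gene lists here and below were chosen with earlier results of these data known. Calls and adjusted p-values of their genes in this contrast are therefore a description and test nothing.

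Decr2, the peroxisomal dienoyl-CoA reductase of unsaturated fatty acids, fell from 20 ± 2.58 to 14.3 ± 0.776 CPM (n = 5 each; log2 -0.56, SE 0.10, edgeR adjusted p 0.00442). All 5 BrapcKO libraries, at 13 to 15.1 CPM, lay below all controls, at 18 to 24.5. The adjusted p was 0.0503 with the Y-linked score as a further term and 0.182 between the flox/flox genotypes, and the call held without any 1 library.

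Slc27a2, a fatty acid transporter and very long-chain acyl-CoA synthetase, fell from 7.07 ± 1.02 to 4.59 ± 0.666 CPM (-0.50, SE 0.14, edgeR adjusted p 0.0489), also with no overlap of the groups. Of all genes, 3.71% lay wholly below control in this way. Its call was lost without any 1 library except BrapcKO 04 (adjusted p 0.053 to 0.199), with DESeq2's size factors (0.0507) and with library totals (0.0669). With the Y-linked score added the difference was -0.31 (adjusted p 0.458). Far2, a fatty acyl-CoA reductase of ether lipid and wax synthesis, changed by -0.48 (SE 0.09, adjusted p 0.00666). Its groups overlapped, at 25.9 to 38.8 and 17.2 to 30.3 CPM, and the call was lost with group as the only term (-0.25, adjusted p 0.487) and without BrapcKO 21 (-0.41, adjusted p 0.0613).

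Mitochondrial beta-oxidation, the parallel route for shorter chains, had 0 called genes of 19 listed and a median of 0.09. Of 10 PPAR receptors, partners and coactivators, which regulate both routes, 1 was called higher and 1 lower. Rxrg, a retinoid X receptor that pairs with PPARs, changed by 0.77 (SE 0.14, edgeR adjusted p 0.00684), from 13 ± 4.23 to 17.9 ± 5.01 CPM. Pparg changed by -0.79 (SE 0.19, adjusted p 0.0207), from 6.02 ± 2.22 to 4.2 ± 0.929 CPM. Both overlapped between the groups, and with group as the only term neither was called (0.46 and -0.52, adjusted p 0.335 and 0.314). Both lost the call without BrapcKO 21 (0.0629 and 0.083), and Pparg also without control 09 (-0.66, adjusted p 0.139).

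Of 10 measured genes known to be induced by PPARs, 1 was called higher and 1 lower, with a median of 0.22. Ucp2, an uncoupling protein of the mitochondrial inner membrane, rose from 9.38 ± 1.38 to 17.1 ± 4.64 CPM (0.82, SE 0.18, edgeR adjusted p 0.0154), with the groups apart. Over all genes 3.12% lay wholly above control. The Ucp2 call was lost when control 08, control 09 or BrapcKO 21 was left out (adjusted p 0.0502 to 0.123). Microglia, whose summed markers are given above, are known to express Ucp2, and their part in its value was not tested. Fabp3, a fatty acid-binding protein, changed by -0.49 (SE 0.14, adjusted p 0.0487). It was called without control 23 or 24 and lost the call without any 1 of the other 8 libraries (0.0513 to 0.207), with library totals (0.0597) and by limma-voom (0.0763). With group as the only term the Fabp3 difference was -1.14 (adjusted p 0.227).

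The 7 genes called on these lists were Decr2, Slc27a2, Far2, Rxrg, Pparg, Ucp2 and Fabp3. Within B1 Decr2 was called (edgeR adjusted p 0.0476) and the other 6 were not (0.0526 to 0.245). With the Y-linked score added Pparg was called (0.0422) and the other 6 were not (0.0503 to 0.458). Between the flox/flox genotypes none of the 7 was called (0.0741 to 0.317).

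**Figure D4:**
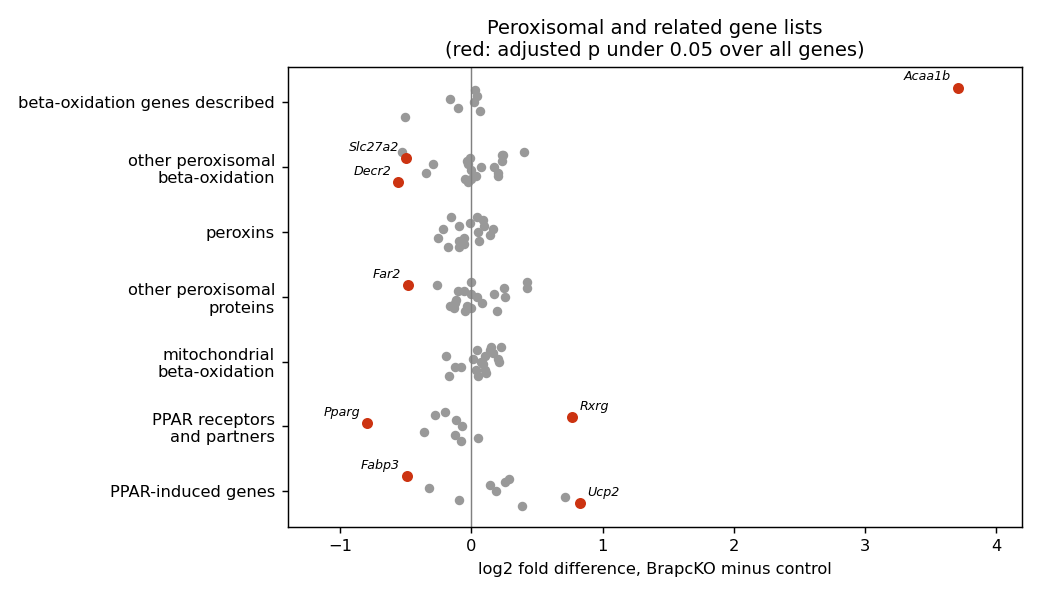
Log2 differences between BrapcKO and control, 1 dot a gene, for the 8 genes described and 6 related lists; vertical offsets within a list only separate dots. Red dots passed an adjusted p under 0.05 over all genes, and Acaa1b lies far from all others at 3.71.

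Acaa1b was also read beside its neighbours on chromosome 9. Distances were taken between the lowest coordinates of the genes, whatever their strand. Of the 20 other genes of the table within 1000000 bases of Acaa1b, 1 was called higher and 0 lower. The shares over all genes were 3.12% higher and 4.95% lower, and nothing is read from this count. The called neighbour, Golga4, a golgin of the trans-Golgi, rose from 181 ± 12.3 to 243 ± 16.7 CPM (0.41, SE 0.08, edgeR adjusted p 0.00723). The Golga4 call was lost without BrapcKO 21 (0.29, adjusted p 0.112), within B1 (0.29, adjusted p 0.114), with the Y-linked score added (0.44, adjusted p 0.0662) and between the flox/flox genotypes (0.34, adjusted p 0.241). The measured genes nearest on either side by this distance, Dlec1 and Oxsr1, differed by -0.88 and 0.04 (edgeR adjusted p 0.0536 and 0.863).

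The genes whose log2 CPM was most like that of Acaa1b over the 10 libraries were Snx31, Trnp1, Itpk1, Atp2c2 and Tpm1, with Pearson correlations of 0.97, 0.97, 0.95, 0.95 and 0.95. After removal of the group and code means these were 0.85, 0.78, 0.77, 0.68 and 0.66. Snx31, a sorting nexin, stood at 0.144 ± 0.0668 CPM in control and 1.91 ± 1.74 CPM in BrapcKO (log2 4.23, SE 0.48). Atp2c2, a calcium and manganese pump of the secretory pathway, stood at 0.535 ± 0.2 and 3.51 ± 1.27 CPM (2.97, SE 0.31). Without BrapcKO 21 the difference of Snx31 was 2.65, and Itpk1 lost its call (0.52, adjusted p 0.0685). Itpk1 also lost it within B1 (0.0647) and with the Y-linked score (0.0826). Between the flox/flox genotypes Atp2c2 was called (0.0434) and the other 4 were not (0.0557 to 0.233). The 5 genes were picked for likeness to a gene chosen from this contrast. Their differences and calls in it therefore describe them and test nothing. The control mean of Snx31 also lay under 0.582 CPM, the level that every gene of the table reached in at least 5 libraries. None of the 5 was on the lists of peroxisomal, mitochondrial or PPAR genes.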

How the data were processed

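The authors deposited raw read counts per gene, 1 column for each library, which were used as deposited. The submitters' processing notes name FastQC, Subread, featureCounts, DESeq2 and edgeR and the builds mm10 and GRCm38; the sources used here give no versions, settings or strand use. Of 14276 identifiers, 14271 matched GENCODE M21 (GRCm38) after removal of versions, and symbols, positions and exon lengths came from it.

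Counts were fitted with edgeR 4.0.16 (TMM, robust quasi-likelihood test, terms for group and title code) in R 4.3.3, after a test of the script on simulated data. The default filter removed 0 genes. P-values were adjusted by Benjamini and Hochberg over all genes. SE is the log2 difference divided by the square root of F. Genotypes were compared in a fit of 4 genotypes with title code. Log2 CPM for correlations used a prior count of 2. Coding sequences were aligned with Biopython 1.88. No 2 replicates agreed within sampling noise (chi-square per degree of freedom 7.15 to 96.3).

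The members and gene lists were chosen with earlier results of these data known. Genes are named by rule: all 8 members, from each other list up to 6 called genes by smallest p, called neighbours of Acaa1b, and the 5 genes most like it; Dlec1, Myd88 and Oxsr1 were named for their position. Genes of marker lists are named without values, except Gfap and Slc1a2, which are given for their share of a sum. Genes of the title code comparison named in the closing section were chosen as stated there. Alternatives were other terms, scalings, filters, tools (DESeq2 1.42.0, limma-voom 3.58.1), subsets, and fits without each library.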

Additional observations from a re-analysis of the deposited data

Results flagged for a closer look

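In 18 sets of 5 libraries (the CPM of each of the 8 genes, and the log2 ratio of Acaa1b to Acaa1a, in each group), 3 had a library far from the other 4 by Dixon's criterion. Chance alone gives about 1 in 20. Scp2 in BrapcKO 21 stood at 69.2 CPM, against 34.9 to 39.8 in the other BrapcKO libraries, and BrapcKO 21 is the only B2 library of its group. Acox3 in BrapcKO 05 stood at 39 CPM, against 26.3 to 29.8 in the rest of the group. Ehhadh in control 22 stood at 3.81 CPM, against 2.57 to 2.9 in the other controls.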

How the results depend on the processing

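No paired analysis was possible because the groups share no replicate number. The log2 difference of Acaa1b ran from 2.98 to 4.29 over the settings, a description of the values that chose it, and the difference between Acaa1b and Acaa1a stayed between 3.04 and 4.4. The counts of all genes called higher and lower, 446 and 706, moved to 261 and 356 with group as the only term, 92 and 228 with the Y-linked score added, 112 and 303 within B1 (119 and 275 in the interaction fit, added after seeing the data), 48 and 57 between the flox/flox genotypes, 252 and 439 for flox/ko Cre+ against flox/wt Cre-, and 709 higher by DESeq2. Without 1 library they ran from 117 to 617 and from 289 to 880, lowest without BrapcKO 21. Among peroxisomal, mitochondrial and PPAR genes outside the 8 described, 2 were called higher and 5 lower. These counts were 1 and 2 with group only, 0 and 1 with the Y-linked score, 0 and 1 within B1 (0 and 1 in the interaction fit), and 0 and 0 between the flox/flox genotypes. They were 2 lower for flox/ko Cre+ against flox/wt Cre- and 3 lower with library totals. Without 1 library they ran from 0 to 3 and from 1 to 4. Members called lower were 1 (Abcd2) by DESeq2 and with the Y-linked score, and 0 to 1 without 1 library. As the members were chosen with this contrast known, and the lists with earlier results of these data known, these counts are a description. The causes were not tested. Of the settings of the title code, all added after seeing the data, the controls alone gave 1 member called higher of 7 fitted, as Acaa1b fell to the low-count filter. The fit of all libraries gave 4 of 8, Acaa1b included, and leaving out 1 library gave 2 to 4. With the longest transcript as length, control levels per kilobase were 7.78 for Acaa1a, 8.31 for Acox3, 22.2 for Hsd17b4, 21 for Scp2 and 27.4 for Abcd3. Within B2 no call was made, since it has 1 BrapcKO library. Depth limits Acaa1b, with 3 to 15 reads in control.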

Other observations

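Genes of the related lists were also compared between the title codes, with 25.1% of all genes called in either direction, and no list was tested as a group. Of 19 mitochondrial beta-oxidation genes 4 were called higher in B2 and 0 lower, and the 21 other genes of peroxisomal beta-oxidation had 0 called in either direction, against 13.4% higher and 11.8% lower over all genes. Of 17 genes listed as peroxins 1 was called higher and 3 lower, and of 10 PPAR receptors and partners 1 higher and 5 lower. Some of the larger values, chosen after they were seen, were those of Hadhb, a subunit of the mitochondrial trifunctional protein (log2 1.37, edgeR adjusted p 9.7e-06), Fabp3 (1.55), Pex14, a docking protein of peroxisomal import (0.95), and Pex11g, of the peroxisome division family (-1.58). Pex11g was low, at a mean of 0.97 CPM in control and 1.65 in BrapcKO, with an SE of 0.29 for its code difference. What the code stands for is not stated in the labels, so no cause is named.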
